A study of Mus musculus with 16 samples.

Results

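A set of 10 markers of vessel-wall cells was followed in RNA sequencing of ventricular myocyte preparations from mouse hearts under pressure overload. They are 10 of the 35682 genes in the deposited count table. They were picked by symbol as a gauge of smooth muscle cells and pericytes carried along with the myocytes. Earlier results of these data were known when they were chosen. All 10 were in the table, and 8 of them had enough counts to be tested. The study compared 8 wild-type (WT) mice with 8 littermates of the transgenic line B3AR-Tg, which is named for the beta-3 adrenergic receptor. Every animal in both groups had undergone TAC, a surgical narrowing of the aorta, 9 weeks before collection, and no unoperated animals are analysed here. Hearts were perfused by the Langendorff method to free the myocytes, which were kept on plates for 1 hour before RNA was taken. Ribosomal RNA was removed and stranded total RNA libraries were made from 500 ng each. The promoter behind the transgene and the age and sex of the mice are not given in the sources used here. Values written with ± are the mean and SD of the 8 animals of a group. CPM is the usual per-library scaling of counts to a common total, here with TMM factors that correct for library composition.

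Mural cells wrap the endothelial tube of blood vessels. Smooth muscle cells surround arteries and arterioles and contract by sliding smooth muscle myosin along smooth muscle actin. Pericytes sit on capillaries, depend on platelet-derived growth factor from endothelial cells for their recruitment, and are abundant in the heart. Several genes used as mural markers are not exclusive to these cells: smooth muscle actin is switched on in activated fibroblasts and in stressed myocytes, and Abcc9 encodes the sulfonylurea receptor of the ATP-sensitive potassium channel in cardiac myocytes as well as in vessels.

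The libraries held between 5985335 and 14365864 counts, and a count of 3, taken as the floor of detection, corresponded to between 0.201 and 0.487 CPM. This floor covers counting error only. The 10 cardiomyocyte markers, Myh6, Ttn and Actc1 among them, summed to 93660 ± 10170 CPM (WT) and 103500 ± 10880 CPM (B3AR-Tg), so both groups carried the markers of the labelled cell type.

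Acta2 was the contractile marker with the most counts, and its sequences are shown for that reason. Smooth muscle genes are switched on by serum response factor through a motif called the CArG box. A script searched the 250 bases before the RefSeq start of each gene (GRCm38.p6) for this motif, which reads the same on both strands, allowing 1 of its 10 bases to differ. In all, 2 such stretches were found before the RefSeq start of Acta2, and 2.96% of all 32851 windows of this length held at least 2. In GENCODE M21, Acta2 starts farther upstream, at 34255590, so both stretches lie inside that gene model. They are shown with the motif in capitals, the first at chr19:34255438-34255467 and the second at chr19:34255388-34255417, both on the minus strand.
Acta2 first stretch: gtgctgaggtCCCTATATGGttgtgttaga
Acta2 second stretch: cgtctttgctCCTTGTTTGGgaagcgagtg
Of the 7 members with a window, Cspg4 was the other one with a match, where 2 overlapping readings of 1 stretch were counted. At least 1 match was held by 18.6% of all windows. None of the 7 searched members held a CArG box without a differing base, against 1.47% of all windows. Tagln, Myh11 and Pdgfrb had no window and were not searched. The Mylk window lies inside the GENCODE M21 model of that gene. A match is a description of the sequence and was not linked to any measurement here.

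Acta2 also belongs to a family of near-identical actins, of which Actc1 and Acta1 are far more abundant in myocytes. Its GENCODE M21 transcripts held 2165 different words of 31 bases, and 30 of them (1.39%) also occurred in transcripts of another gene. None of the shared words came from Actc1 or Acta1, with which the longest common stretch was 23 and 29 bases. The longest stretch was shared with the cytoplasmic actin Actg1 and had 56 bases, shown here because reads inside it cannot be told apart between the 2 genes.
Acta2 and Actg1: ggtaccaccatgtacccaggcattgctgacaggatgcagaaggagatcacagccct
The other 9 members shared between 0% and 1.41% of such words with another gene. Tagln, Mylk, Notch3 and Abcc9 have exons that overlap genes on the opposite strand, and although the kit keeps strand, the strand setting of the counting is not given in the sources used here, so their values are uncertain to that extent.

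Per kilobase of exon, the members covered a wide range of levels. In WT, Abcc9 was highest at 40.0 ± 6.62 CPM per kilobase, followed by Acta2 at 19.2 ± 8.68 and the pericyte marker Rgs5 at 9.87 ± 2.17. Cspg4 followed at 1.64 ± 0.729 and Pdgfrb at 0.889 ± 0.338 CPM per kilobase. The 5 lowest members, Tagln, Notch3, Mylk, Cnn1 and Myh11, lay between 0.232 and 0.342 CPM per kilobase, with SDs from 0.0953 to 0.265, so their order was within the spread between animals. Myh11 and Cnn1, the markers most restricted to mature smooth muscle, were thus among the lowest, while Acta2 was far above them. In B3AR-Tg, Abcc9, Acta2 and Rgs5 were again the 3 highest, at 54.4 ± 5.54, 25.7 ± 8.97 and 7.85 ± 3.25 CPM per kilobase.

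**Figure D1:**
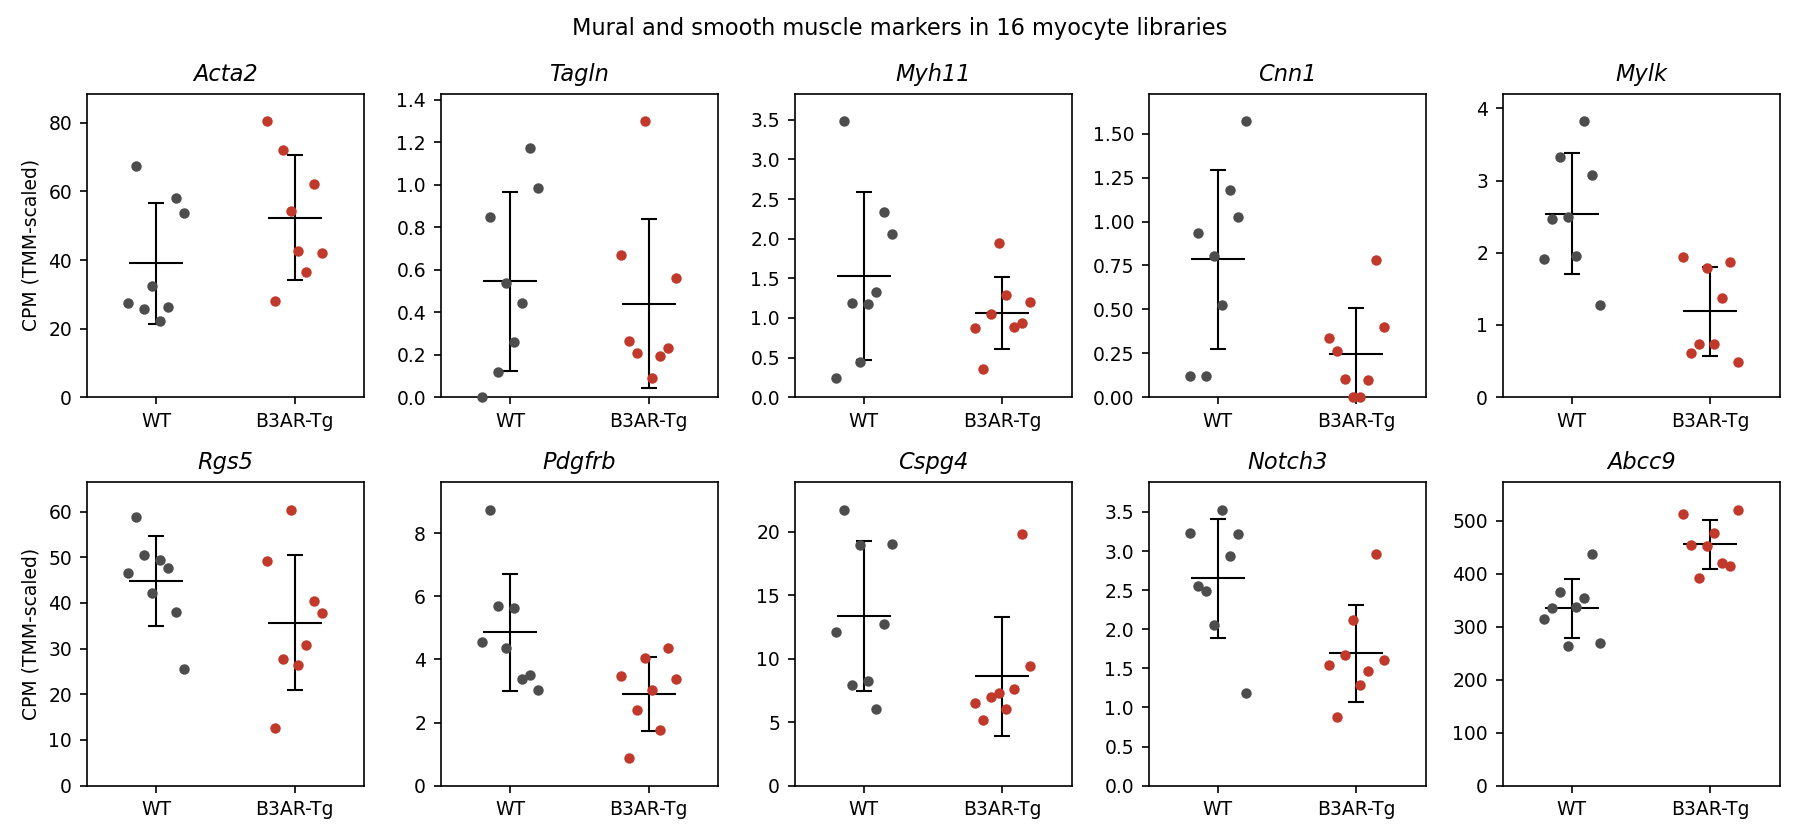
Level of each of the 10 markers in TMM-scaled CPM (vertical axes, each from 0) in WT and B3AR-Tg animals, 1 point per animal, with the mean (bar) and SD (whiskers) of 8 animals. Abcc9 lies higher in B3AR-Tg, with 5 of 8 animals above every WT animal, and Mylk lies lower, with 4 of 8 animals below every WT animal.

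Between genotypes the markers did not move as 1 block. Of the 8 tested members, Mylk fell, Abcc9 rose and 6 did not pass the test (edgeR quasi-likelihood test, Benjamini-Hochberg adjusted p under 0.05 over all 10945 tested genes). Over all tested genes, 4.91% passed, 2.03% higher and 2.88% lower in B3AR-Tg, and 19.3% had an unadjusted p under 0.05. The log2 fold changes of 6 tested members lay below 0 and the median over the 8 was −0.61, against a median of 0.01 over all tested genes. Low counts had removed Tagln and Cnn1 from the test. All 10 members summed to 444.7 ± 64.0 CPM (WT) and 559.4 ± 58.0 CPM (B3AR-Tg), most of it Abcc9. The members without Abcc9, mostly Acta2 and Rgs5, summed to 110.2 ± 25.1 CPM in WT, with a range from 92.8 to 167.1, and to 104.2 ± 33.0 CPM in B3AR-Tg, with a range from 49.1 to 145.1. In bulk libraries, fewer cells of a type and less RNA per cell cannot be told apart. No label says which animals shared an isolation or library day, so the spread between animals may include such differences.

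Acta2 encodes smooth muscle alpha-actin (ENSMUSG00000035783, chromosome 19, 34241090 to 34255590, minus strand; this and later positions are from GENCODE M21, build GRCm38). WT animals ran from 22.1 to 67.4 CPM around a median of 29.9, and B3AR-Tg animals from 28.1 to 80.5 CPM around 48.5. The groups overlapped widely, although 7 of 8 B3AR-Tg animals lay above the WT median. The log2 fold change was 0.42 with a standard error of 0.24, and the difference did not pass (edgeR adjusted p = 0.366). Its 95% interval ran from −0.10 to 0.94 on the log2 scale.

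In WT, 3 animals, replicates 2, 7 and 8, held 67.4, 58.0 and 53.6 CPM of Acta2, while the other 5 were between 22.1 and 32.3 CPM. These 3 animals also had the highest fibroblast marker levels in WT, at 1.61, 1.02 and 1.23 on a centred log2 scale, with replicate 4 next at 1.00. Over all 8 WT animals, Acta2 had Pearson r = 0.785 with the fibroblast level, 0.761 with the endothelial level and 0.673 with the load level. None passed (exact permutation adjusted p = 0.105, 0.147 and 0.264, over the 48 relations described below). In B3AR-Tg the fibroblast relation had r = 0.529 (exact permutation adjusted p = 0.378).

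Myh11, the heavy chain of smooth muscle myosin (ENSMUSG00000018830, chromosome 16, 14194535 to 14291372, minus strand), was low. Between 2 and 41 counts were recorded per library. The WT median was 1.26 CPM (lowest 0.240, highest 3.48) and the B3AR-Tg median 0.989 CPM (lowest 0.353, highest 1.95). All B3AR-Tg animals lay inside the WT range. The log2 fold change was −0.58 ± 0.40 (standard error) and did not pass (edgeR adjusted p = 0.457). At this depth its 95% interval was wide, from −1.44 to 0.29.

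Cnn1 encodes calponin, which binds actin and slows smooth muscle myosin (ENSMUSG00000001349, chromosome 9, 22099216 to 22109630, plus strand). Its counts in WT replicates 1 to 8 were 1, 11, 1, 9, 4, 8, 7 and 16. In B3AR-Tg replicates 1 to 8 they were 5, 3, 1, 0, 0, 1, 10 and 5. All 8 B3AR-Tg animals lay below the WT median of 0.869 CPM, and 4 lay below the lowest WT animal. That WT animal, replicate 3, held 1 count, under the floor of 3 counts, so the second comparison lies within counting error. The counts of 0 in replicates 4 and 5 allow levels of up to 0.487 and 0.275 CPM. Fitted without the low-count filter, Cnn1 had a log2 fold change of −1.51 (standard error 0.60) and did not pass (edgeR adjusted p = 0.206).

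Tagln encodes transgelin, an actin-bundling protein of smooth muscle (ENSMUSG00000032085, chromosome 9, 45929619 to 45936058, minus strand), and had at most 10 counts in any library. The WT animals averaged 0.545 ± 0.422 CPM and the B3AR-Tg animals 0.441 ± 0.399 CPM, both close to the floor. Without the low-count filter its log2 fold change was −0.36 (standard error 0.58, edgeR adjusted p = 0.769). A difference in Tagln was not detectable at this depth.

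Mylk encodes the myosin light chain kinase of smooth muscle and non-muscle cells, which switches smooth muscle myosin on (ENSMUSG00000022836, chromosome 16, 34745210 to 35002420, plus strand). The WT animals spanned 1.28 to 3.82 CPM with a median of 2.48, whereas B3AR-Tg spanned 0.482 to 1.94 CPM with a median of 1.05. All 8 B3AR-Tg animals lay below the WT median, and 4 lay below the lowest WT animal. Mylk fell by 1.08 on the log2 scale (standard error 0.31, edgeR adjusted p = 0.0464). It reached the low-count filter level of 1.02 CPM in 8 WT and 4 B3AR-Tg libraries, so it was kept in the test mainly through WT. The call was marginal: it was lost when any 1 of 12 of the 16 animals was left out, with edgeR adjusted p-values from 0.0317 to 0.1055 over the 16 fits. The call held without WT replicate 8, or without B3AR-Tg replicate 1, 4 or 7. Mylk3, the cardiac member of the kinase family, stood at 647 CPM in WT against 683 CPM in B3AR-Tg and did not pass (0.08 on the log2 scale, edgeR adjusted p = 0.552).

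Rgs5, a regulator of G protein signalling and the most used pericyte marker (ENSMUSG00000026678, chromosome 1, 169655501 to 169695813, plus strand), was well counted, with 142 to 736 counts per library. The median was 47.1 CPM in WT (25.6 at the lowest, 58.9 at the highest) and 34.3 CPM in B3AR-Tg (12.5 and 60.4). B3AR-Tg held both the lowest animal, replicate 2, and the highest, replicate 4. The log2 fold change was −0.34 with a standard error of 0.22 and did not pass (edgeR adjusted p = 0.427).

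Pdgfrb encodes the receptor through which platelet-derived growth factor recruits mural cells (ENSMUSG00000024620, chromosome 18, 61045150 to 61085061, plus strand). It had a WT median of 4.47 CPM (lowest 3.05, highest 8.75) and a B3AR-Tg median of 3.20 CPM (lowest 0.883, highest 4.36). All 8 B3AR-Tg animals lay below the WT median, but the ranges overlapped. The difference of −0.75 on the log2 scale (standard error 0.27) failed the adjusted test (edgeR adjusted p = 0.116).

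Notch3, the receptor that keeps smooth muscle cells of small arteries mature (ENSMUSG00000038146, chromosome 17, 32120820 to 32166852, minus strand), had 10 to 38 counts per library. Levels spanned 1.18 to 3.53 CPM in WT, with a median of 2.75, and 0.883 to 2.96 CPM in B3AR-Tg, with a median of 1.57. All but 1 of the B3AR-Tg animals lay below the WT median. The log2 fold change was −0.63 (standard error 0.25, edgeR adjusted p = 0.161).

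Cspg4 encodes the NG2 proteoglycan of the pericyte surface (ENSMUSG00000032911, chromosome 9, 56865033 to 56899870, plus strand). WT animals ranged from 6.03 to 21.8 CPM around a median of 12.4 CPM. In B3AR-Tg, replicate 7 stood apart at 19.9 CPM and the other 7 animals lay between 5.21 and 9.39 CPM. With all animals, the log2 fold change was −0.64 with a standard error of 0.28 and did not pass (edgeR adjusted p = 0.218). Without B3AR-Tg replicate 7 it was −0.94 with a standard error of 0.24 and passed (edgeR adjusted p = 0.0245), so this library decides the call.

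Abcc9 moved the other way. This gene encodes the sulfonylurea receptor subunit SUR2 (ENSMUSG00000030249, chromosome 6, 142587862 to 142702315, minus strand). WT animals held from 263.6 to 436 CPM (median 336), and B3AR-Tg animals from 391.7 to 521 CPM (median 452). All 8 B3AR-Tg animals lay above the WT median and 5 lay above the highest WT animal, replicate 7. Abcc9 rose by 0.44 on the log2 scale (standard error 0.10, edgeR adjusted p = 0.0132), and the call held without each of the 16 animals in turn.

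The channel pores that pair with SUR2 were not called. Kcnj8, the Kir6.1 pore of pericytes and smooth muscle, averaged 1.67 ± 0.540 CPM in WT against 1.56 ± 0.854 CPM in B3AR-Tg (log2 fold change −0.09, edgeR adjusted p = 0.922). Kcnj11, the Kir6.2 pore of cardiac myocytes, was at 51.2 ± 8.70 and 45.0 ± 12.9 CPM (log2 fold change −0.18, edgeR adjusted p = 0.549). In both groups the myocyte pore therefore had far more counts than the vascular pore. Abcc8, which encodes the related receptor SUR1, averaged 17.8 CPM in WT against 19.9 CPM in B3AR-Tg (log2 fold change 0.16, edgeR adjusted p = 0.454).

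**Figure D2:**
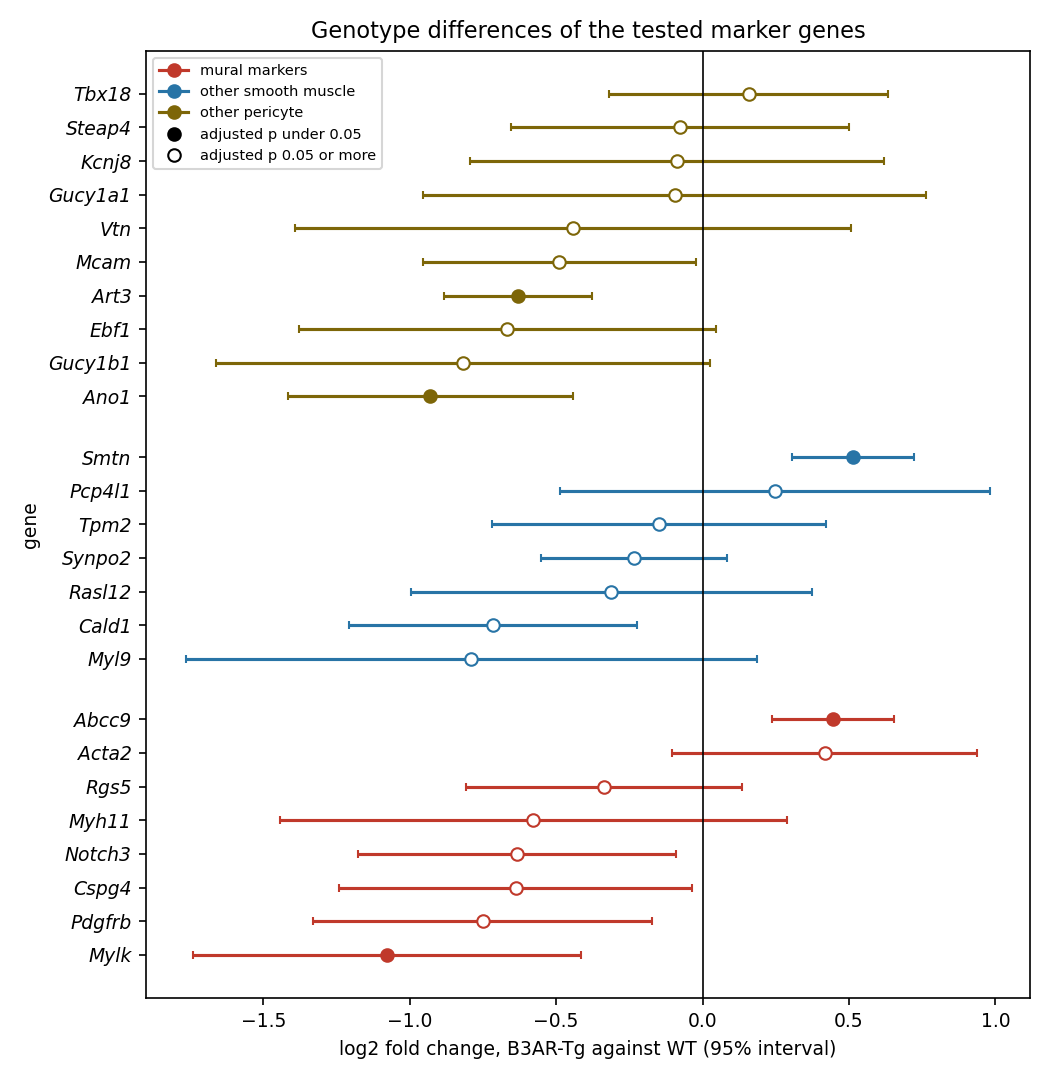
Log2 fold change of B3AR-Tg against WT (horizontal axis) with its 95% interval for the tested members of the mural marker list, the other smooth muscle list and the other pericyte list (1 gene per line, filled where the edgeR adjusted p was under 0.05). Mylk, Ano1 and Art3 pass on the lower side, and Abcc9 and Smtn on the higher side.

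The 3 ratios formed within each animal were compared by an exact two-sided permutation test over the 12870 splits of the animals, with p-values adjusted over the 3. A ratio of 2 genes in 1 library does not depend on how libraries are scaled, apart from the 0.5 CPM added to each value. Abcc9 relative to Rgs5 averaged 2.90 ± 0.351 on the log2 scale in WT against 3.77 ± 0.664 in B3AR-Tg; the difference was 0.87 (exact permutation p = 0.00357, adjusted p = 0.0107), and all 8 B3AR-Tg animals lay above the WT median. Acta2 relative to Myh11 averaged 4.35 ± 0.560 in WT against 5.05 ± 0.522 in B3AR-Tg; the difference was 0.70 (exact permutation p = 0.0227, adjusted p = 0.0340), again with all 8 B3AR-Tg animals above the WT median. With 0.1 CPM added instead, the Acta2 to Myh11 difference was 0.73 and did not pass (exact permutation adjusted p = 0.105). It was also lost when any 1 of 8 of the 16 animals was left out, WT replicates 2, 3, 5 and 6 and B3AR-Tg replicates 1, 2, 3 and 7. Rgs5 relative to Myh11 averaged 4.63 ± 0.901 in WT against 4.46 ± 0.437 in B3AR-Tg; the difference of −0.17 was smaller than the animals' SD (exact permutation p = 0.640, adjusted p = 0.640). Abcc9 and Rgs5 thus changed by unequal amounts, also when any 1 of the 16 animals was left out. For Acta2 and Myh11 this depended on the setting, and for Rgs5 and Myh11 it was not seen.

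Further smooth muscle genes were mostly low. Of 18 further genes on a smooth muscle list, not all of them of the contractile apparatus, 7 were tested, 1 rose and 6 did not pass. Over all tested genes, 2.03% rose. Lmod1, Actg2, Kcnmb1 and Susd5 were at or near 0, with at most 6 counts each over all 16 libraries. Smtn, an actin-binding protein of contractile muscle, rose from 30.9 ± 5.52 to 44.1 ± 3.09 CPM (log2 fold change 0.51, edgeR adjusted p = 0.00582). Which cells the Smtn and Synpo2 counts came from was not tested. Myl9, the regulatory light chain of smooth muscle myosin, varied widely at 22.2 ± 19.4 and 12.8 ± 9.91 CPM and did not pass (edgeR adjusted p = 0.361). The median log2 fold change of the 7 was −0.23. Serum response factor and its cofactors (Srf, Myocd, Mrtfa and Mrtfb) had log2 fold changes between −0.01 and 0.19, and 0 of the 4 passed by edgeR, 0 also at an unadjusted p under 0.05, which 19.3% of all tested genes reached.

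Of 18 further pericyte markers, 10 were tested, 2 fell and 8 did not pass, against 2.88% of all tested genes that fell. The median log2 fold change of the 10 was −0.47. Ano1, a calcium-activated chloride channel of contractile mural cells, fell by 0.93 on the log2 scale from 3.78 ± 1.14 CPM (edgeR adjusted p = 0.0226). Art3, of the ADP-ribosyltransferase family, fell by 0.63 from 209 ± 32.6 to 135 ± 27.9 CPM (edgeR adjusted p = 0.00577). Art3 made up most of the summed level of this list, which went from 236.5 ± 30.4 CPM (WT) to 156 ± 25.6 CPM (B3AR-Tg). The next highest marker of the list, Mcam, averaged 6.03 ± 1.58 CPM in WT, far below Art3. Which cells the Art3 counts came from was not tested, so the summed level is not a gauge of pericytes as a whole.

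Ligands and targets of the PDGFRB and NOTCH3 receptors were read together with Angpt1. Of these 11 genes, 9 were tested and 1 fell, against 2.88% of all tested genes. The gene that fell was Hey1, a transcription factor induced by Notch, which went from 2.71 ± 1.67 to 1.02 ± 0.548 CPM (log2 fold change −1.46, edgeR adjusted p = 0.0422). The ligands Pdgfb (log2 fold change −0.10, edgeR adjusted p = 0.885) and Jag1 (−0.60, edgeR adjusted p = 0.379) did not pass. Of 11 genes of the myosin light chain phosphorylation pathway, such as Rock1, Rock2 and Rhoa, 11 were tested and 0 passed by edgeR, with 1 at an unadjusted p under 0.05, against 19.3% of all tested genes. Of 21 relatives of the members by family, 18 were tested and 2 fell, the skeletal actin Acta1 (log2 fold change −1.74, edgeR adjusted p = 0.0245) and the non-muscle myosin Myh10 (−0.83, edgeR adjusted p = 0.0226). Actc1, the main actin of cardiac myocytes, did not pass (0.10, edgeR adjusted p = 0.677).

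Some of the endothelial and fibroblast markers fell, as did 2.88% of all tested genes. All 12 endothelial markers were tested, 4 fell, 8 did not pass and the median log2 fold change was −0.68. Their summed level was 132.3 to 189 CPM over WT animals and 57.8 to 205 CPM over B3AR-Tg animals, of which replicate 4 lay above every WT animal. Of 9 tested fibroblast markers, 6 fell, 3 did not pass and the median was −1.51, with summed levels 49.3 to 199 CPM over WT animals and 13.2 to 70.0 CPM over B3AR-Tg animals. Pecam1, an endothelial adhesion molecule, had a log2 fold change of −0.73 (edgeR adjusted p = 0.0132), and Col1a1, a fibrillar collagen, had −2.39 (edgeR adjusted p = 0.00507). Of 10 leukocyte markers, 4 were tested, 0 passed by edgeR and 2 (Lyz2 and Mrc1) had an unadjusted p under 0.05, against 19.3% of all tested genes. Their summed levels were 6.88 to 22.0 CPM over WT animals and 2.65 to 10.2 CPM over B3AR-Tg animals. The 6 load markers all fell, with a median log2 fold change of −1.45.

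**Figure D3:**
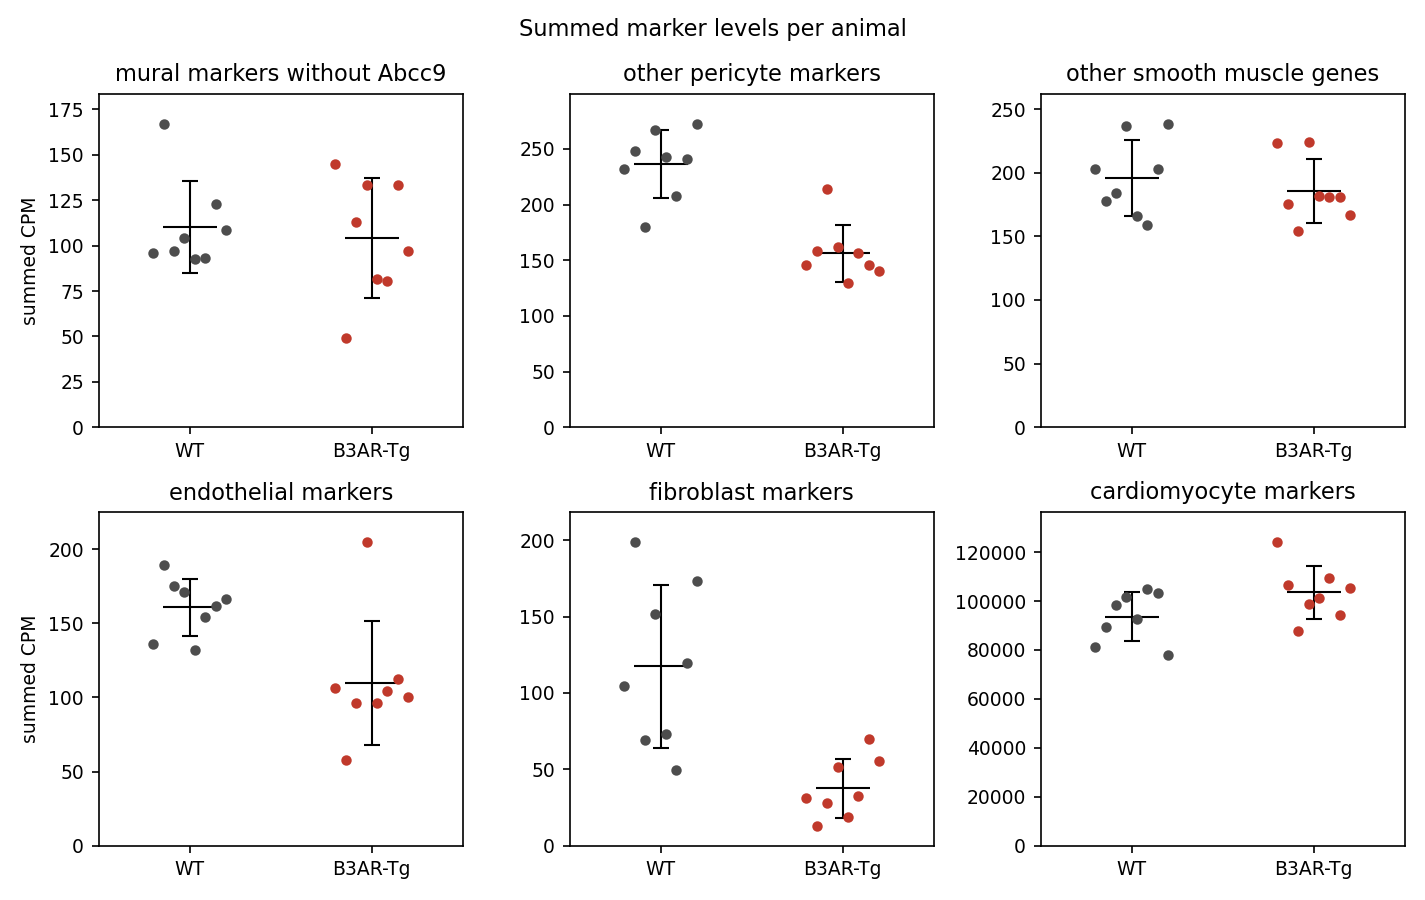
Summed CPM per animal (vertical axes from 0) of the members without Abcc9, of 2 further lists of mural genes, and of endothelial, fibroblast and cardiomyocyte markers, 1 point per animal with the mean and SD of 8. The members without Abcc9 overlap between genotypes (92.8 to 167.1 CPM in WT, 49.1 to 145.1 CPM in B3AR-Tg), and so do the fibroblast markers (49.3 to 199 CPM in WT, 13.2 to 70.0 CPM in B3AR-Tg). Art3 makes up most of the further pericyte list, and Synpo2 is the highest gene of the further smooth muscle list.

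With the level of fibroblast and endothelial markers as a covariate, 0 members passed by edgeR, against 2 of all 10945 tested genes. So few calls over all genes mean that the 0 says little about the members. Mylk then had a log2 fold change of −0.70 (standard error 0.47, edgeR adjusted p = 0.594) and Abcc9 one of 0.41 (standard error 0.15, edgeR adjusted p = 0.324). Myh11, Rgs5, Pdgfrb and Cspg4 changed sign under this covariate, to 0.62, 0.33, 0.14 and 0.55, and none of them passed. With the load marker level as covariate, 7 of all 10945 tested genes passed. Abcc9 then went from 0.44 to 0.13 (edgeR adjusted p = 0.823) and Mylk stayed at −1.06 (edgeR adjusted p = 0.558). These levels differ between genotypes themselves, so the 2 cannot be told apart in these fits. The part of other cells and of load in the members' differences was not tested otherwise.

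The variation of the members among animals of 1 genotype was set beside other marker levels. After results were seen, the 8 tested members were related within each genotype to the fibroblast, endothelial and load marker levels, in 48 relations over 8 animals each. In WT, Cspg4 went with the fibroblast level (Pearson r = 0.947, exact permutation p = 0.000273, adjusted p = 0.0131), and so did its ranks (Spearman rho = 0.952, exact permutation p = 0.00114, adjusted p = 0.0536). Without the 2 animals farthest from the median level, r was 0.924. In B3AR-Tg the same relation had r = 0.832 (exact permutation p = 0.00526, adjusted p = 0.0631) and rho = 0.881 (exact permutation p = 0.00724, adjusted p = 0.0869), and r without the 2 farthest animals was 0.795. The fibroblast list holds no Cspg4.

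On the load level, 3 WT animals stood apart at 1.58 to 1.88 while the other 5 lay between 0.03 and 0.81. These 3 animals, replicates 2, 4 and 8, were also the 3 highest in Cspg4, at 21.8, 18.9 and 19.1 CPM. In WT, Cspg4 had r = 0.965 with the load level (exact permutation p = 0.00151, adjusted p = 0.0363), which may rest on that gap. By rank it had rho = 0.929 (exact permutation p = 0.00223, adjusted p = 0.0536), and r without the 2 farthest animals was 0.951. Whether Cspg4 went with the fibroblast or the load level in WT was not tested. In B3AR-Tg, replicate 7 had the highest load level (0.28) and the highest fibroblast level (0.28), beside the highest Cspg4.

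For Rgs5 in B3AR-Tg, the relation with the endothelial level was r = 0.893 (exact permutation p = 0.00761, adjusted p = 0.0731) and rho = 0.833 (exact permutation p = 0.0154, adjusted p = 0.123), with r = 0.659 without the 2 farthest animals. Its relation with the fibroblast level there was of like size, at r = 0.805 (exact permutation p = 0.0162, adjusted p = 0.105) and rho = 0.810 (exact permutation p = 0.0218, adjusted p = 0.131), with r = 0.703 without the 2 farthest animals. In WT the endothelial relation was r = 0.01 (exact permutation p = 0.984, adjusted p = 0.999) and rho = −0.02 (exact permutation p = 0.977, adjusted p = 1), and r without the 2 farthest animals was 0.357. Whether the relation differed between genotypes was not tested. Notch3 in B3AR-Tg went with the fibroblast level (r = 0.912, exact permutation p = 0.0025, adjusted p = 0.0401), less so by rank (rho = 0.810, exact permutation p = 0.0218, adjusted p = 0.131) and without the 2 farthest animals (r = 0.689). Of the 32 relations with fibroblast and endothelial levels, 2 passed by Pearson's r and 0 by Spearman's rho after adjustment over the 48. Of the 16 with the load level, 1 passed by Pearson's r, that of Cspg4 in the WT animals that fell apart on this level, and 0 by Spearman's rho.

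**Figure D4:**
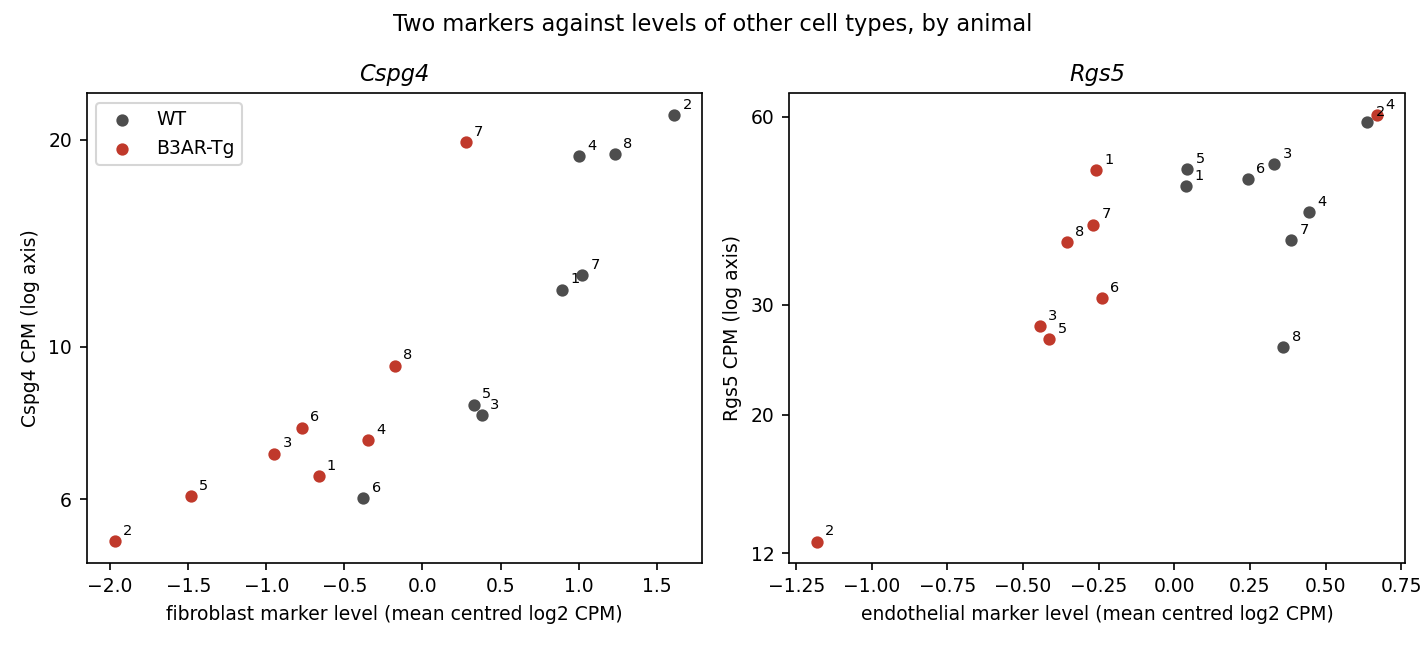
Cspg4 against the fibroblast marker level and Rgs5 against the endothelial marker level (CPM on log axes against mean centred log2 CPM), 1 point per animal labelled with its replicate number. B3AR-Tg replicate 7 lies at 19.9 CPM of Cspg4, at the height of WT replicates 2, 4 and 8. Its fibroblast level is lower, at 0.28 against 1.61, 1.00 and 1.23 in those animals. B3AR-Tg replicate 2 is lowest in both genes.

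Likeness between genes was measured as Pearson's r over 16 animals of log2 CPM less the genotype mean, as a description. The 5 genes most like Rgs5 were Shroom4 (0.900), Cyyr1 (0.877), Dock9 (0.859), Cav1 (0.857) and Crip1 (0.856), and Pdgfrb came next among all tested genes (0.854). Among the members, Rgs5 was also like Notch3 (0.701), while its likeness to Cspg4 was 0.129. Acta2 was most like Myh11 (0.593) and Cspg4 (0.566), and Abcc9 had its highest value with Myh11 (0.313). The 5 genes most like Myh11 were Zfp143 (0.917), Tmem107 (0.878), Pgap4 (0.848), Magee1 (0.838) and Plpp3 (0.803), none of them on a mural list, and at 2 to 41 counts per library Myh11 carried large counting error. For Cspg4, whose query was added after its values were seen, Dpysl3 (0.946), Plcb4 (0.927), Postn (0.927), Col8a1 (0.898) and Msn (0.895) were most alike. Postn, a matrix protein of activated fibroblasts, is on the fibroblast list.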

How the data were processed

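The authors deposited whole-number counts per gene, 1 column per animal, with no normalization. Per the submitters' processing notes, Salmon and GRCm39 were used; since Salmon gives estimates, the counts may have been rounded. The annotation release and strand setting are not given in the sources used here. Genes were tested with edgeR 4.0.16 (R 4.3.3) on genotype alone, over 16 animals, with TMM factors and filterByExpr (minimum count 10, minimum total 15), two-sided, with Benjamini-Hochberg adjustment. Standard errors come from the F statistic and intervals from 14 residual degrees of freedom. The script was tested on simulated data. Gene positions and exon lengths come from GENCODE M21 (GRCm38), matched by gene ID.

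Marker levels are means of centred log2 CPM (prior count 2). Samples of 1 number did not deviate together, with correlations from −0.22 to 0.09 over the 8 pairs. No 2 libraries of the same genotype agreed within sampling noise (chi-square per gene at least 6.05 over 56 pairs). Pairs across genotypes were not compared in this way. Alternatives covered scaling, filters, DESeq2 1.42.0, limma 3.58.1 voom, covariates, a replicate block and leaving out animals. Named genes were all members, up to 4 called genes of each other list by p-value plus 10 preset genes, and the 5 genes most like Myh11 and Rgs5 (not all are reported). Pdgfb, Jag1, Abcc8, Rock1, Rock2, Rhoa, Lmod1, Kcnmb1, Susd5, Synpo2, Srf, Myocd, Mrtfa, Mrtfb, Lyz2 and Mrc1 were named after their values were seen. Members and lists were chosen with earlier results of these data known.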

Additional observations from a re-analysis of the deposited data

Results flagged for a closer look

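The 20 groups of 8 animals (10 members in each genotype, on log2(CPM + 0.5)) were searched with Dixon's test for a highest or lowest animal that stood apart from the rest (95% critical value). One was found, and chance alone would give about 1 in 20 groups. Cspg4 in B3AR-Tg replicate 7 was at 19.9 CPM (255 counts), and the next animal was at 9.39 CPM, a gap of 0.568 of the range. In this animal the fibroblast level was 0.28 and the load level 0.28, both the highest of B3AR-Tg, while its Rgs5 was at 40.3 CPM and its Pdgfrb at 4.36 CPM.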

How the results depend on the processing

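The 2 called members became 1 with library totals only, without the filter and with a minimum count of 5, each time Abcc9 alone, and 0 with each of the 3 covariates, with the replicate block or at an adjusted p under 0.01; leaving out single animals gave 1 to 3. The labels do not say that a replicate number marks shared animals, litters or days, and 0 of 16 libraries correlated best with their own number; the replicate block gave 230 called genes, against 537. The number of called genes was 838 with DESeq2, 2, 20 and 7 with the combined, endothelial and load covariates, 908 at a threshold of 0.1, 109 at 0.01, and 272 to 675 without single animals (272 without WT replicate 4, 277 without B3AR-Tg replicate 5, 345 without B3AR-Tg replicate 8). Library totals alone gave 346 higher and 165 lower genes, against 222 and 315. The covariates turned Myh11 to 0.62 (combined) and 0.39 (endothelial), Rgs5 to 0.33 and 0.20, Pdgfrb to 0.14 (combined), and Cspg4 to 0.55 (combined) and 0.79 (load); the cause was not tested. Acta2 less Myh11 was 0.73 with a pseudocount of 0.1 CPM and 0.59 to 0.83 without single animals, and Rgs5 less Myh11 was −0.35 to 0.026 (0.026 without WT replicate 1). Acta2 kept its sign under all 29 alternatives but reached 1.34 and 1.36 with the combined and load covariates, without passing. Counting depth limits Tagln, Cnn1 and Myh11.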
